A study of Danio rerio with 6 samples.

Results

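The genes described here are 9 regulators of blood stem and progenitor cells in sorted endothelial cells (ECs) of the zebrafish tail. They were chosen by name: myb, gata2a, gata2b, tal1, lmo2, ikzf1, cebpa, cbfb and meis1b, which are 9 of 10 named genes and 9 of the 10232 genes in the deposited table. The 10th, runx1, was not analysed here. Bulk RNA-sequencing covered 6 libraries at 36 h post fertilisation (hpf), each from about 5000 GFP+ cells of the caudal haematopoietic tissue (CHT), the tail site where blood stem cells settle and multiply. The 3 control libraries carried flk1:GFP and UAS:DN-bmal1a, and the 3 DN-bmal1a libraries carried flk1:GFP, flk1:GAL4 and UAS:DN-bmal1a. Both groups therefore held the UAS transgene, and only the second had the GAL4 driver that switches it on. The transgene encodes a form of the clock protein Bmal1a without its transactivation domain. flk1 is another name of kdrl, a VEGF receptor gene, and its promoter drives both the reporter and GAL4, so that GFP can also mark cells that leave the endothelium while they still hold the protein. Each library came from a pool of embryos.

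Blood stem and progenitor cells (HSPCs) arise from specialised ECs in the floor of the dorsal aorta, move to the CHT and divide there. A small set of transcription factors runs this transition. Gata2, Tal1 (also called Scl) and Lmo2 act in both endothelium and early blood and can sit in 1 DNA-bound complex. Runx1, which binds Cbfb as a partner, drives the step from endothelium to blood, and Myb, Ikzf1 (Ikaros) and Cebpa act in the progenitors and their descendants. The comparison asked whether the RNA of these genes in the sorted cells differed when DN-bmal1a was made in ECs.

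None of the 9 genes passed the test of a difference between DN-bmal1a and control ECs. Values are reads per 1000000 of a normalized library size (CPM), and fold changes are on log2(CPM + 1), tested with limma with Benjamini-Hochberg adjustment over all 10232 genes, and a gene was called at an adjusted p under 0.05 if its level differed at least 2-fold. Over all genes this called 1, or 0.00977%. At an unadjusted p under 0.05, 1 of the 9 genes (meis1b) passed, beside 11.2% of all genes. The lowest limma adjusted p among the 9 was 0.423. With edgeR's quasi-likelihood test and DESeq2 on the recovered reads none of the 9 was called either, beside 0% and 1.87% of all genes. None of the 9 had an unadjusted p under 0.05, beside 7.86% of all genes with edgeR and 10.2% with DESeq2. meis1b was at an unadjusted DESeq2 p of 0.0501. In all 9 genes the 3 DN-bmal1a values overlapped the 3 control values, whereas the groups did not overlap in 17.7% of all genes. The 9 genes had a median log2 fold change of 0.28, with 5 higher and 4 lower in DN-bmal1a, beside a median of -0.13 over all genes, of which 41.9% were higher. The median of all genes moved with the scaling, to 0.038 after quantile normalization. The median of the 9 was 0.31 under that scaling. It was 0.014 without control replicate 3 and 0.14 without DN-bmal1a replicate 2.

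**Figure D1:**
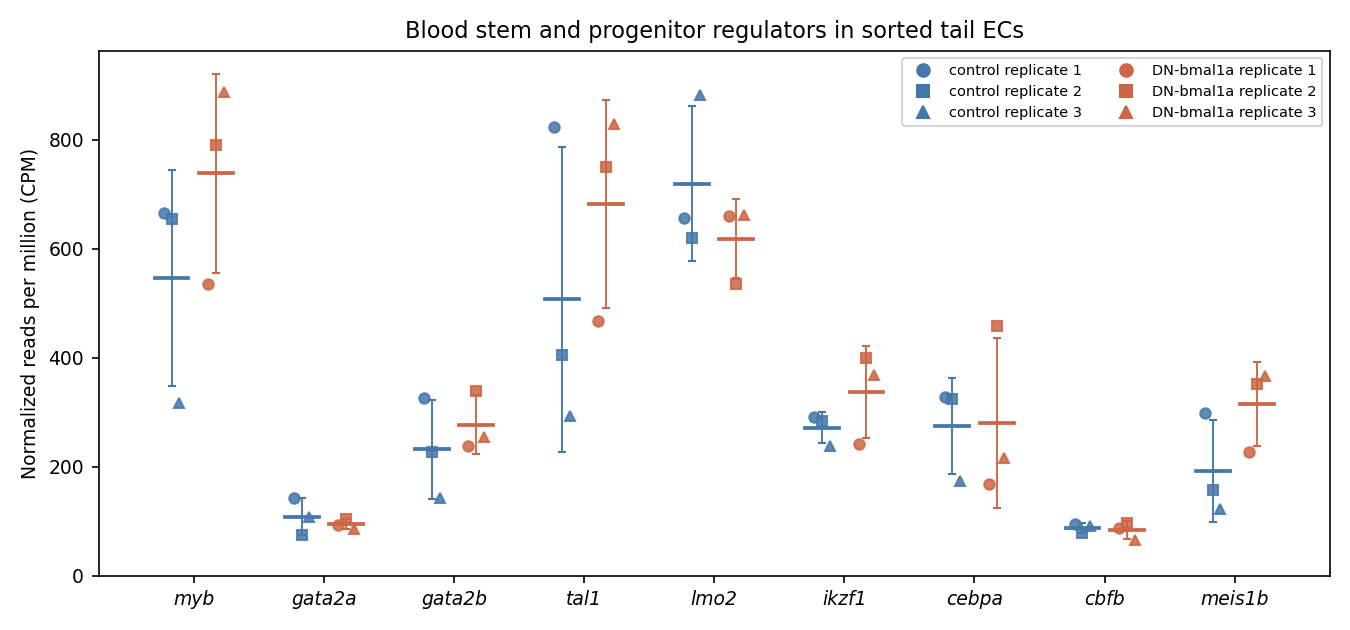
CPM (y axis) of the 9 genes in each library. Symbols are the 3 replicates of control (blue) and DN-bmal1a (orange), horizontal bars are group means and error bars 1 SD; the groups overlapped in all 9 genes.

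The libraries set the ground for reading these values. The recovered reads numbered 26161915 to 55004237 per library, with the fewest for DN-bmal1a replicate 2. This library also had the most listed genes without a read, at 1760. Such genes numbered 865 for replicate 3 of the same genotype, 722 for its replicate 1, and from 34 to 696 per control library. How far these zeros entered the counts of lower genes in the lists below was not tested. The common dispersion of edgeR, the squared relative variation between replicates beyond counting, was 0.57 for control and 1.36 for DN-bmal1a. Limma estimated the spread of each gene over both groups together. The gene used to build the transgene, listed as arntl1a, was at 20.6, 16.8 and 3.28 CPM in control ECs and 42.9, 22.1 and 55.5 in DN-bmal1a ECs. The 15 endothelial markers listed summed to between 8000 and 10451 CPM in the controls and between 4331 and 6281 CPM in DN-bmal1a, and all 15 were lower in DN-bmal1a. They were led by stab2, with 1428, 2168 and 1840 CPM in control ECs and 724, 301 and 366 in DN-bmal1a ECs. The study's own edgeR analysis listed stab2, stab1 and flt4 as lower in DN-bmal1a, so the sum holds genes called between the genotypes. The 18 myeloid markers listed summed to between 9834 and 15426 CPM in the controls and between 9290 and 13926 CPM in DN-bmal1a, led by lyz, a lysozyme gene. RNA of blood cells was thus present in both groups. The 19 erythroid markers listed, led by globin genes, summed to 886 to 2600 CPM in the controls and 3220 to 4916 CPM in DN-bmal1a, with 12 of the 19 higher there. Lymphoid markers were scarce, at 31.1 to 47.4 CPM against 8.43 to 16.7 CPM for the 4 listed. Of these, il7r and rag2 had 0 CPM in every DN-bmal1a library. Genes in the table had reads in at least 3 libraries, so both were listed only through their controls, and the lymphoid sums carry that selection. Markers of epidermis (12 listed, 3846 to 3864 CPM against 2661 to 3327 CPM) and muscle (14 listed, 1396 to 5075 CPM against 1019 to 4455 CPM) were also present. In bulk RNA, more cells of a type and more RNA per cell cannot be told apart, and the part of these markers in the values of the 9 genes was not tested.

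myb encodes the transcription factor c-Myb, needed in fish and mouse for definitive blood progenitors. It had 667, 654 and 317 CPM in control replicates 1, 2 and 3, and 536, 791 and 889 CPM in DN-bmal1a replicates 1, 2 and 3. Control replicate 3 was the lowest library and DN-bmal1a replicates 2 and 3 lay above all controls, while DN-bmal1a replicate 1 lay between. The mean was 546 ± 198 CPM for control and 738 ± 182 CPM for DN-bmal1a (SD, n = 3 each). The log2 fold change of myb was 0.48 ± 0.30 (standard error; limma adjusted p = 0.587). A two-sided exact permutation test of the difference of mean CPM gave p = 0.3, where 0.1 is the smallest that 3 libraries against 3 allow. The 95% interval of the fold change ran from -0.20 to 1.16 on the log2 scale. Neither no difference nor a 2-fold higher level was outside it. Without control replicate 3 the log2 fold change of myb was 0.13.

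ikzf1, which encodes the zinc finger factor Ikaros of lymphoid and other blood progenitors, had 292, 284 and 239 CPM in control ECs and 242, 400 and 369 in DN-bmal1a ECs. As for myb, DN-bmal1a replicates 2 and 3 were above all controls and control replicate 3 was the lowest. The controls of ikzf1 lay close together (272 ± 28.9 CPM, SD, n = 3), and the DN-bmal1a libraries were more spread (337 ± 83.8 CPM, SD, n = 3). Its log2 fold change was 0.28, with a 95% interval from -0.20 to 0.77 (limma adjusted p = 0.664).

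meis1b encodes a TALE homeobox factor that works with Hox and Pbx proteins, and its mammalian counterpart maintains HSPCs. It had the largest difference of the 9 genes. Its values were 299, 157 and 123 CPM in control ECs and 227, 352 and 367 in DN-bmal1a ECs, so that control replicate 1 lay above DN-bmal1a replicate 1 and the groups overlapped. The means were 193 ± 93.7 CPM (SD, n = 3) and 316 ± 76.7 CPM (SD, n = 3). The log2 fold change of meis1b was 0.78 (standard error 0.33), with a 95% interval from 0.049 to 1.51, an unadjusted limma p of 0.0389, a limma adjusted p of 0.423 and an exact permutation p of 0.2. With each library left out in turn it ranged from 0.51 (without control replicate 3) to 1.15 (without control replicate 1). The unadjusted p was 0.00248, 0.113 and 0.157 without control replicates 1, 2 and 3, and 0.0203, 0.106 and 0.127 without DN-bmal1a replicates 1, 2 and 3. Its paralogue meis1a had at most 3.42 CPM in any library.

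tal1 encodes a basic helix-loop-helix factor at the origin of both blood and vessels, and binds E-box sequences with E proteins as partners. tal1 had 824, 406 and 292 CPM in control ECs and 467, 751 and 829 in DN-bmal1a ECs. Its controls spanned 2.82-fold, more than those of the other 8 genes, and control replicate 1 was nearly as high as the highest DN-bmal1a library. This gave a log2 fold change of 0.52 (standard error 0.36; 95% interval -0.28 to 1.33, limma adjusted p = 0.616). It was 0.94 without control replicate 1 and 0.20 without control replicate 3.

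lmo2 encodes a LIM-only protein that bridges Tal1 and Gata factors and is made in endothelium as well as blood. It had 657, 621 and 882 CPM in control ECs and 660, 535 and 661 in DN-bmal1a ECs. Here control replicate 3, the lowest library for myb, tal1 and meis1b, was the highest. The log2 fold change of lmo2 was -0.21, and its 95% interval, from -0.62 to 0.20, was the narrowest of the 9 (limma adjusted p = 0.705). A 2-fold difference in either direction lay outside this interval, as it did for gata2a, gata2b, ikzf1, cebpa and cbfb. These intervals are not adjusted for the number of genes.

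gata2a and gata2b are the pair of zebrafish gata2 genes. gata2a is known from endothelium, and gata2b from the haemogenic endothelium of the aortic floor, upstream of runx1. gata2a had 142, 75.1 and 107 CPM in control ECs and 92.8, 104 and 86.6 in DN-bmal1a ECs, where all 3 libraries lay inside the control range. gata2b had 326, 226 and 143 CPM in control ECs and 237, 340 and 255 in DN-bmal1a ECs, with DN-bmal1a replicate 2 above all controls. The log2 fold changes were -0.15 for gata2a (95% interval -0.75 to 0.45, limma adjusted p = 0.866) and 0.32 for gata2b (-0.33 to 0.97, limma adjusted p = 0.707). The gata2a value changed sign, to 0.072, without control replicate 1, and that of gata2b was 0.014 without control replicate 3.

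The ratio of gata2b to gata2a within a library does not depend on its scaling. The ratio was 2.29, 3.01 and 1.34 in control ECs and 2.56, 3.25 and 2.95 in DN-bmal1a ECs, with control replicate 3 the lowest and the other 5 libraries between 2.29 and 3.25. The groups overlapped (two-sided exact permutation test on the log2 ratio, p = 0.3, n = 3 per group). CPM is not divided by transcript length, so that the ratio can be compared between libraries but is not the ratio of the RNAs.

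cbfb encodes the beta subunit of core-binding factor, the protein that Runx factors bind as a partner. cbfb had 95.01, 77.8 and 90.95 CPM in control ECs and 88.4, 96.8 and 65.2 in DN-bmal1a ECs. These 6 values spanned 1.48-fold, the narrowest range of the 9 genes, and the groups overlapped. Its log2 fold change was -0.088 (95% interval -0.64 to 0.46, limma adjusted p = 0.911).

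cebpa encodes a leucine zipper factor of myeloid progenitors. cebpa had 328, 324 and 174 CPM in control ECs and 168, 459 and 216 in DN-bmal1a ECs, so that the highest and the lowest library were both DN-bmal1a. The means were 275 ± 88.1 CPM (SD, n = 3) and 281 ± 156 CPM (SD, n = 3), and the log2 fold change was -0.050 (95% interval -0.89 to 0.79, limma adjusted p = 0.968). With 1 library left out it ranged from -0.47 to 0.25, with the lowest value without DN-bmal1a replicate 2. The 3 libraries with the most cebpa, DN-bmal1a replicate 2 and control replicates 1 and 2, were also the 3 with the highest sum of myeloid markers. As a percent of that sum cebpa was 2.13, 2.34 and 1.76 in control ECs and 1.81, 3.30 and 2.10 in DN-bmal1a ECs. Whether myeloid cells carried the cebpa reads was not tested.

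**Figure D2:**
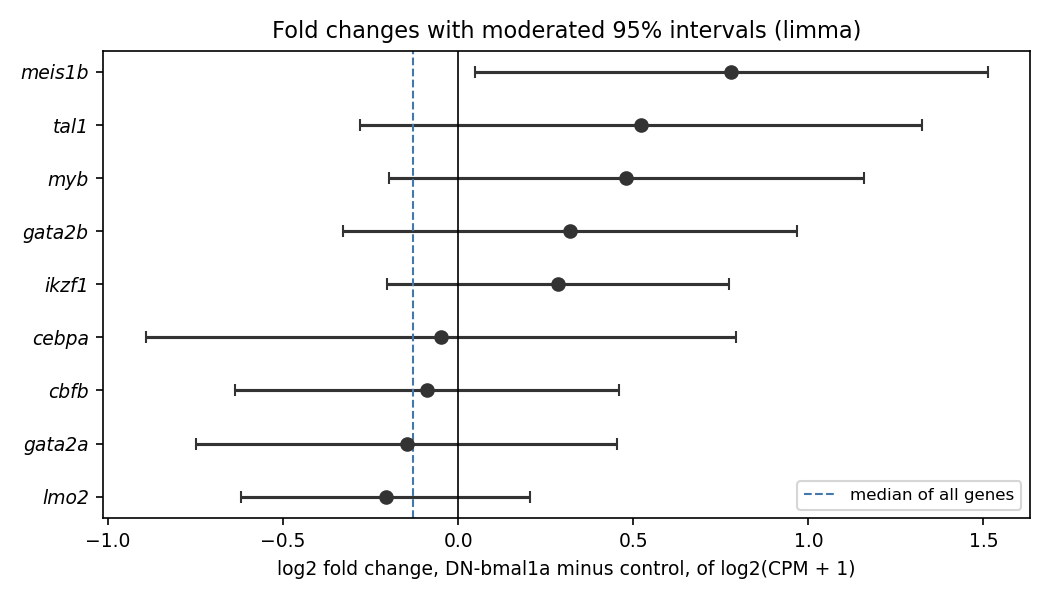
Log2 fold change of each gene (x axis, DN-bmal1a minus control on log2(CPM + 1)) with its moderated 95% interval from limma; the dashed line is the median of all genes, -0.13. The interval of meis1b, from 0.049 to 1.51, is the only one of the 9 that leaves out 0, and it is not adjusted for the number of genes.

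The 9 genes did not move as 1 block from library to library. Control replicate 3 was the lowest of the 6 libraries for 5 of them (myb, gata2b, tal1, ikzf1 and meis1b), and the highest for lmo2. DN-bmal1a replicate 2 was the highest for 4 (gata2b, ikzf1, cebpa and cbfb) and DN-bmal1a replicate 3 for 3 (myb, tal1 and meis1b). DN-bmal1a replicate 1 had 8 of the 9 genes below their own mean over the libraries, and DN-bmal1a replicate 2 had 8 above it, so that libraries of 1 genotype differed in these genes. The sum of the 9 genes was 3630, 2825 and 2368 CPM in control ECs and 2719, 3830 and 3738 in DN-bmal1a ECs.

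**Figure D3:**
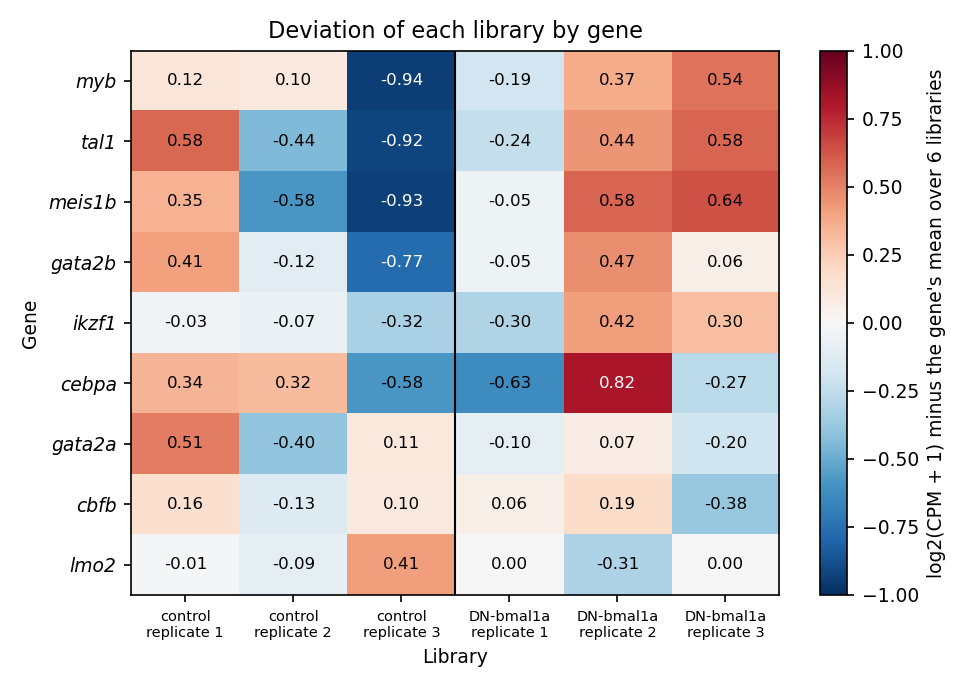
Each cell is log2(CPM + 1) of a gene (y axis) in a library (x axis) minus the mean of that gene over the 6 libraries, from blue (low) to red (high). Control replicate 3 ranges from -0.94 for myb to 0.41 for lmo2.

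Likeness between genes was described by the root mean square difference of log2(CPM + 1) over the 6 libraries, after centring each gene on its own mean. The closest pair was tal1 and meis1b (0.15), followed by gata2a and cbfb (0.21) and by myb and gata2b (0.26). The farthest was lmo2 and meis1b (0.75). The 36 pairs of the 9 genes had a median difference of 0.43, beside 0.69 for all pairs of the 6611 genes with a mean of at least 10 CPM. Genes that vary little lie close by this measure, and these medians were not matched for spread or level. Few genes were nearer to tal1 than meis1b was (2), but 83 were nearer to myb than gata2b and 92 nearer to gata2a than cbfb. The 3 genes nearest to myb were fabp3 (0.11), ruvbl1 (0.13) and fam49ba (0.15), and those nearest to gata2b were yaf2 (0.031), mphosph8 (0.093) and pabpc1b (0.11). With 6 libraries such distances share the depth and makeup of each library.

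The spread within groups was mostly smaller than that of a typical gene. The pooled SD of log2(CPM + 1) within groups was 0.23 for lmo2 and cbfb, 0.30 for ikzf1 and 0.34 for gata2a, and it reached 0.62 for tal1 and 0.65 for cebpa. Its median was 0.46 over the 9 genes and 0.59 over all genes. The 9 had higher means than 79.2% (cbfb) to 97.7% (lmo2) of all genes, and genes of like level were not compared. Each of the 9 had between 2639 and 50009 reads per library, which gives a 95% Poisson interval of at most 3.89% to either side. The replicate spread thus exceeded the counting error, which does not cover the molecules sampled before PCR.

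Since the endothelial markers were lower in DN-bmal1a, the 9 genes were also set against their sum in the same library, a comparison chosen after the values were seen. All 9 were a larger mean percent of the endothelial marker sum in DN-bmal1a. The lower sum moves this ratio upwards alike for every gene, so that this direction was largely set by the sum. For cebpa the log2 difference went from -0.050 to 0.84. The share of all genes with a larger mean percent was not counted. For 4 of them (myb, lmo2, ikzf1 and cbfb) all DN-bmal1a libraries were above all controls, beside 32.9% of all genes when divided by the same sum (2.9% lay below, and 0 of the 9). myb was 8.33, 6.26 and 3.08% of the sum in control ECs and 8.53, 18.3 and 18.0% in DN-bmal1a (two-sided exact permutation test on the log2 ratio, p = 0.1, the smallest possible). lmo2 was 8.21, 5.94 and 8.56% in control ECs and 10.5, 12.3 and 13.4% in DN-bmal1a ECs. For myb the gap between the groups was small, since DN-bmal1a replicate 1 was just above control replicate 1, while for lmo2 it was wider. tal1, at 10.3% in control replicate 1 and 7.44% in DN-bmal1a replicate 1, overlapped, as did gata2a, gata2b, cebpa and meis1b. The log2 difference of this ratio lay between 0.69 for lmo2 and 1.68 for meis1b. It kept its sign in all 9 genes with each library left out, which the lower sum also favoured. Such a ratio shows that the genes and the endothelial markers differed by unequal amounts, not which of them changed.

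**Figure D4:**
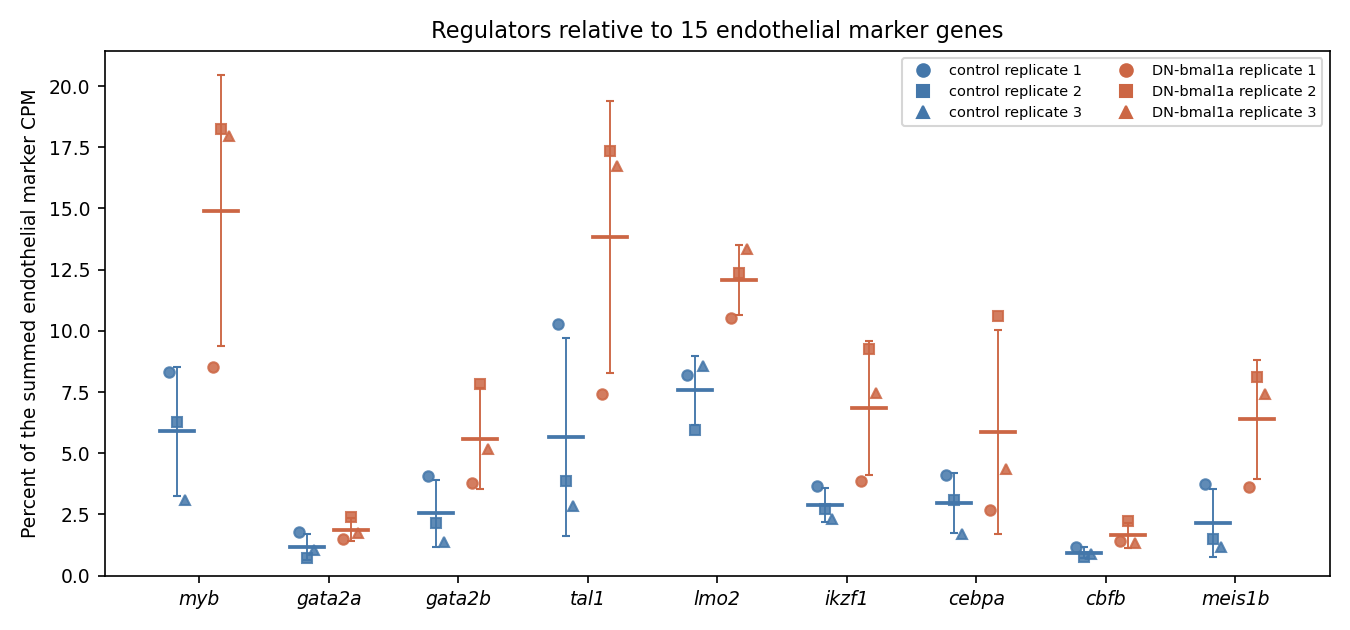
Each gene as a percent of the summed CPM of 15 endothelial markers in the same library (y axis), with replicates as symbols, means as bars and 1 SD as error bars. In DN-bmal1a (orange) lmo2 sits between 10.5 and 13.4%, above the controls (blue) at 5.94 to 8.56%.

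Other transcription factors of blood and haemogenic endothelium, 33 listed of 44 named, included 0 called by limma, edgeR or DESeq2. Of the 33, 7 were higher and 26 lower, where 41.9% of all genes were higher. At an unadjusted limma p under 0.05 there were 1 higher and 6 lower, beside 3.1% and 8.12% of all genes. There were 2 in all with edgeR and 2 with DESeq2, beside 7.86% and 10.2% of all genes. Their median log2 fold change was -0.24, beside -0.13 for all genes, with -0.39 without DN-bmal1a replicate 1, -0.15 after quantile normalization and -0.40 with the replicate block in edgeR. The higher one was gfi1aa, whose product represses endothelial genes in cells turning into blood. gfi1aa had 148, 36.1 and 22.1 CPM in control ECs and 125, 163 and 162 in DN-bmal1a ECs, so that control replicate 1 stood with the DN-bmal1a libraries. Its log2 fold change was 1.58 (limma adjusted p = 0.364). etv2, which encodes an ETS factor that starts the endothelial and blood programmes, had 1669, 1279 and 1604 CPM in control ECs and 1105, 817 and 1013 in DN-bmal1a ECs, without overlap (log2 fold change -0.63, limma adjusted p = 0.280). The other lower genes at that p, meis2a, meis3, hmga2, hlfb and gata1a, had log2 fold changes from -2.46 (meis2a) to -1.22 (hmga2). Near the floor in DN-bmal1a ECs were meis2a (3.36, 8.51 and 0.018 CPM), meis3 (0, 0 and 5.74) and hlfb (1.92, 0 and 0). gata1a, the erythroid Gata factor, had 4.13, 5.84 and 8.89 CPM in control ECs and 0, 0 and 1.83 in DN-bmal1a ECs. Genes in the table had reads in at least 3 libraries, so meis3, hlfb and gata1a were listed only with their controls. Their part in the counts of lower genes carries that selection. Of the 5 factors with the highest mean CPM, etv2 separated and the other 4 overlapped between groups, with log2 fold changes given in brackets for the endothelial ETS genes fli1a (-0.049) and fli1b (-0.32), cebpb (-0.20) and sox7 (-0.10).

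Partners and cofactors of the 9 proteins had 14 of 21 genes listed, with 0 called by limma, edgeR or DESeq2. Of the 14, 3 were higher and 11 lower, where 41.9% of all genes were higher. Their median log2 fold change was -0.50, beside -0.13 for all genes. Without DN-bmal1a replicate 3 that median was -0.27. At an unadjusted limma p under 0.05 there were 2, both lower, beside 8.12% of all genes. There was 1 with each of edgeR and DESeq2, beside 7.86% and 10.2% of all genes. In 5 of the 14, lmo4a, lmo4b, ldb1a, bmi1b and kmt2a, every DN-bmal1a library lay below every control, beside 10.7% of all genes. lmo4a, a LIM-only relative of lmo2, had 273, 278 and 295 CPM in control ECs and 170, 131 and 206 in DN-bmal1a ECs, without overlap (log2 fold change -0.76, limma adjusted p = 0.268). Its paralogue lmo4b had at most 9.05 CPM, and 167, 1 and 0 reads in the DN-bmal1a libraries. lmo4b was thus listed only with its controls, and its lack of overlap carries that selection. The E protein genes tcf3b and tcf12, whose products pair with Tal1, had log2 fold changes of -0.12 and -0.089, and ssbp3b, whose product binds the Lmo2 adaptor Ldb1, had 0.0018. The histone deacetylase gene hdac1 had 0.19. Of ldb1a and ldb1b themselves, neither passed an unadjusted p of 0.05, with log2 fold changes of -0.61 and -0.17.

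Surface and signalling genes of blood progenitors, a list that also held the transcription factor gene mycn, had 13 of 22 named genes listed. Limma and edgeR called 0, with 4 (3 of them higher) and 3 at an unadjusted p under 0.05, beside 11.2% (3.1% higher) and 7.86% of all genes. DESeq2 called 2, ptger4b and il7r, beside 1.87% of all genes. The groups did not overlap in 2 higher genes and 1 lower gene of the 13, beside 7.0% and 10.7% of all genes. ptger4b, a prostaglandin E2 receptor gene, had 29.6, 36.4 and 25.01 CPM in control ECs and 58.1, 68.5 and 73.9 in DN-bmal1a ECs, a separation without overlap. Its log2 fold change was 1.12 (limma adjusted p = 0.268; DESeq2 adjusted p = 0.0257). cxcr4b, one of the receptor genes for the chemokine Cxcl12, had 287, 298 and 198 CPM in control ECs and 305, 479 and 353 in DN-bmal1a ECs, also without overlap between groups but with DN-bmal1a replicate 1 close to the controls (log2 fold change 0.53, limma adjusted p = 0.434). mycn, a Myc family gene of dividing progenitors, had 221, 141 and 81.2 CPM in control ECs and 183, 337 and 326 in DN-bmal1a ECs, the order of libraries of meis1b except that DN-bmal1a replicates 2 and 3 changed places, with overlap (log2 fold change 0.99, limma adjusted p = 0.367). il7r, a lymphoid cytokine receptor gene, had 190, 46 and 128 reads in the controls and 0 in each DN-bmal1a library. Every gene in the table had reads in at least 3 libraries, so il7r was listed only through its controls. Its DESeq2 call and its lack of overlap carry that selection. Against a floor of 3 reads per library, expressed as CPM, il7r was at least 35.9-fold lower in mean CPM, which leaves out the sampling of molecules. The median log2 fold change of the list was -0.18, also with il7r at that bound, but its sign depended on the processing, with 0.050 after quantile normalization, 0.045 with edgeR and 0.066 with DESeq2. It was -0.042 without control replicate 1 and -0.037 without DN-bmal1a replicate 2. gpr183a and cxcr4a overlapped between groups.

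Genes of the niche, expressed by the surrounding cells to hold and feed HSPCs, were lower in 13 of the 14 listed of 23 named. Of all genes, 41.9% were higher. Like the other lists, this one was chosen with earlier results of these data known, so its counts carry that choice. Limma and edgeR called 0, with 3 (all lower) and 4 at an unadjusted p under 0.05, beside 8.12% of all genes lower at that limma p and 7.86% past that of edgeR in either direction. DESeq2 called 2, cxcl12a (DESeq2 adjusted p = 5.31e-07) and cxcl12b (0.0499), beside 1.87% of all genes. The study's own edgeR analysis, at the same adjusted p and fold thresholds, also listed cxcl12a as lower in DN-bmal1a. It did not name the type of edgeR test. In 6 of the 14 every DN-bmal1a library lay below every control, beside 10.7% of all genes. Among these 6, angptl2a and csf3a were near the floor, with control means of 1.24 and 4.03 CPM. In the DN-bmal1a libraries angptl2a had 0, 1 and 0 reads and csf3a 104, 0 and 90. Both reached reads in 3 libraries only with their controls, so their lack of overlap carries that selection. The genes past the unadjusted limma p were cxcl12a and cxcl12b, which encode the chemokine that retains HSPCs, and sele, an endothelial selectin gene. cxcl12a had 101, 94.6 and 108 CPM in control ECs and 24.5, 9.97 and 17.3 in DN-bmal1a ECs (log2 fold change -2.57, limma adjusted p = 0.108). cxcl12b had 102, 117 and 140 CPM in control ECs and 71.0, 40.1 and 61.3 in DN-bmal1a ECs (log2 fold change -1.07, limma adjusted p = 0.256). The median log2 fold change of the niche list was -0.54, and the endothelial markers, 15 of 15 lower with a median of -0.81, stood lower beside it. The niche median was -0.85 without control replicate 1, -0.33 without control replicate 3 and -0.95 without DN-bmal1a replicate 1, and it was -0.31 after quantile normalization and -0.30 with a pseudocount of 10. The part of the endothelial markers in the niche values was not tested.

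**Figure D5:**
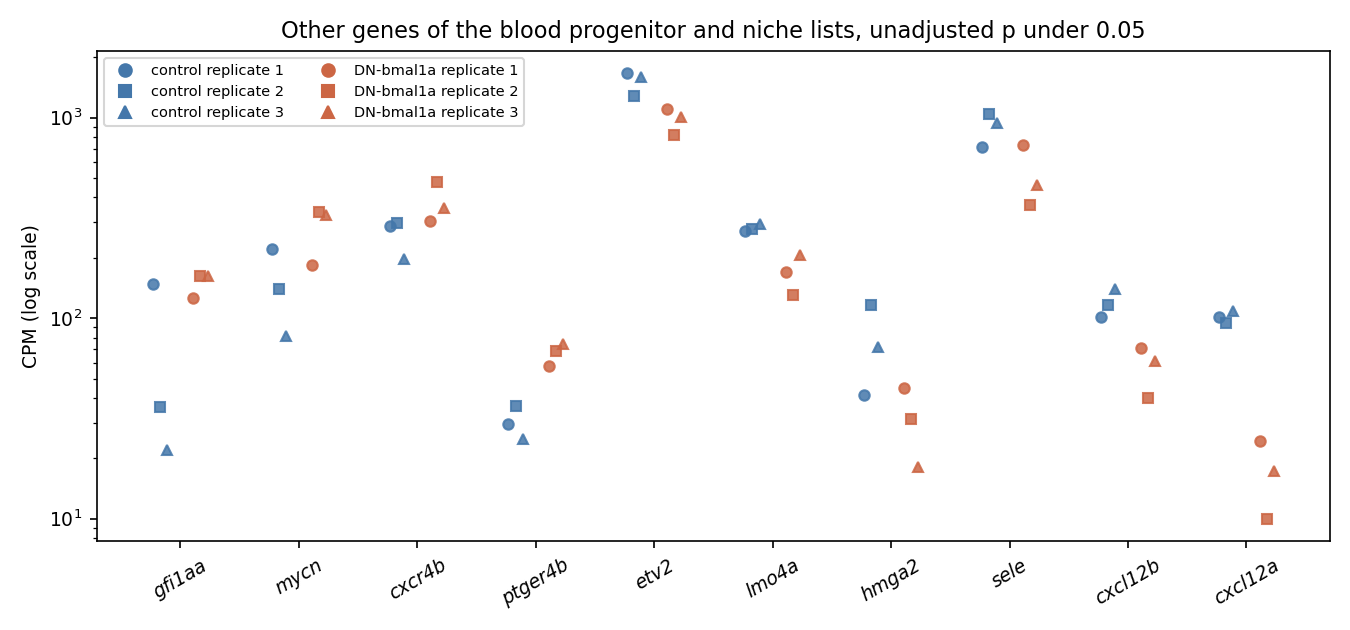
CPM on a log axis (y axis) by library for the 10 genes with the highest mean CPM among those of the transcription factor, partner, surface and niche lists with an unadjusted limma p under 0.05 (symbols are replicates, blue control and orange DN-bmal1a). ptger4b and cxcr4b separate upwards and etv2, lmo4a, cxcl12a and cxcl12b downwards, while gfi1aa, mycn, hmga2 and sele overlap.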

How the data were processed

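Bulk RNA-sequencing of sorted tail ECs was analysed in 6 libraries, grouped by their genotype labels. The libraries were made with a SMARTer and Nextera kit. The authors aligned the reads with STAR 2.7.0f and counted them per gene with HTSeq 0.9.1. The study's methods name danRer10 (GRCz10) and the submitters' processing notes GRCz11, so no coordinates are given. The authors deposited 1 normalized signal per gene and library. In each library the values above 0 were multiples of the value of 1 read (100%, within 0.01 reads), as edgeR's TMM library sizes give it, so whole reads were recovered. No gene in the table had reads in fewer than 3 libraries, and strand and shared reads of paralogues were not examined.

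The test, chosen when the values were taken as CPM, was limma 3.58.1 (R 4.3.3, trended eBayes) on log2(CPM + 1) over all 10232 genes, with moderated 95% intervals. Alternatives were pseudocounts of 0.1 and 10, a filter (at least 1 CPM in at least 3 libraries), rescaling to equal sums, quantile normalization, no trend, a replicate block, each library left out, and edgeR 4.0.16 and DESeq2 1.42.0 on the recovered reads. The members and lists were chosen with earlier results of these data known. Genes named were the members, list genes with an unadjusted p under 0.05, up to 5 genes with the most CPM per list, leading markers, and the 3 genes most like myb and gata2b. Others (arntl1a, ldb1a, ldb1b, meis1a, bmi1b, kmt2a, angptl2a, csf3a, stab1 and flt4) were named after their values were seen. Limma, edgeR and DESeq2 without a block were first tested on simulated data holding known changes. The simulated dispersions were the same in both groups and lower than those of these libraries. Recovery at the real spread was therefore not shown, and the permutation test and the block models were not simulated. The labels do not say that replicates came from separate clutches, and p-values measure only the spread between these libraries.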

Additional observations from a re-analysis of the deposited data

How the results depend on the processing

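No alternative called any of the 9 genes. meis1b, the 1 gene with an unadjusted p under 0.05, lost it without a trend, with the replicate block in limma, with edgeR's quasi-likelihood test without and with the replicate block, and with DESeq2 (0 genes each), where its unadjusted p was 0.119, 0.0557, 0.0805, 0.101 and 0.0501. Leaving out 1 library gave 0 to 2 such genes, tal1 joining without control replicate 1 and ikzf1 without DN-bmal1a replicate 1. The cause was not tested. Over all genes the number called, 1, was 7 without a trend, 0 with edgeR's quasi-likelihood test (804 past an unadjusted p of 0.05), 0 with its replicate block (572), 187 with DESeq2 (19 higher, 168 lower) and 0 to 1 with a library left out (without each of control replicates 1 and 2 and DN-bmal1a replicates 2 and 3 it was 0). Same-numbered libraries had correlations of deviations from -0.074 to 0.0025, and none was nearest to its own number. These correlations showed no pairing by number, but they are too few to exclude it. Limma with the replicate block still called 1 gene. The study's own edgeR analysis of these libraries called more genes than the quasi-likelihood test did here. None of the 9 genes was among them.

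The log2 fold change of cebpa, -0.050, was 0.012 with rescaled libraries, 0.029 with the quasi-likelihood test, 0.053 with DESeq2 and between -0.47 and 0.25 with a library left out. Leaving out a library gave -0.38 to 0.072 for gata2a and -0.20 to 0.078 for cbfb. The signs of the other 6 genes held under the 16 alternatives. Without control replicate 3 the median of the 9 genes was 0.014, from 0.28. The counting error of the 9 genes, at most 3.89%, was small beside their intervals.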
